A study of Mus musculus with 17 samples.

Results

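The genes examined were the ligands and receptors of the activin and TGF-beta pathways: the activin subunits Inhba, Inhbb, Inhbc and Inhbe, the activin antagonist Fst, the ligands Tgfb1, Tgfb2 and Tgfb3, and the receptors Tgfbr1 and Tgfbr2. They were taken by gene symbol, 10 of the 24352 genes listed in the HFD or the WD table, and each of the 10 was listed in both tables. RNA-seq had been performed on 17 mouse samples to compare transcripts of livers lacking NgBR and of their tumors with those of WT livers. Nus1 encodes NgBR, a subunit that joins Dhdds in cis-prenyltransferase, and this enzyme makes the dolichol that carries sugars for protein glycosylation.

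Liver-specific NgBR-knockout (N-LKO) mice carried loxP-flanked NgBR alleles and Cre under the albumin promoter, so deletion was directed to hepatocytes and other liver cells kept the gene. All mice were in the C57BL6 background and, per the study's methods, male. After 8 weeks on chow, per the study's methods, they were given a high-fat diet (HFD) or a Western diet (WD, high in fat and cholesterol) for 16 weeks. Under HFD there were 4 livers of WT and 4 of N-LKO mice. Under WD there were 3 livers of each genotype, and 3 tumors from N-LKO mice. The methods describe the mice as matched for age, and all samples are labelled as taken after 16 weeks of diet. Whether a tumor and an N-LKO liver came from the same animal was not stated. Samples were labelled as biological replicates; separate animals were not stated beyond that, and p-values measure the spread between these samples.

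Activins are dimers of inhibin beta subunits, and TGF-betas are dimers that are secreted in a latent complex. Both kinds of ligand bind a type II receptor that activates a type I receptor, which in turn phosphorylates SMAD2 and SMAD3 so that they enter the nucleus with SMAD4. In liver the pathway is known for control of hepatocyte growth and for activation of stellate cells, the matrix-producing cells of fibrosis, and the beta C and beta E activin subunits are made mainly by hepatocytes.

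Sequences just upstream of the transcript start are shown for 4 ligand genes whose level in tumors differed from WT liver, in both directions (values below), so that the promoters can be compared. RefSeq promoter entries (GRCm38.p6) were matched for 8 of the 10 genes. Each line gives the 250 bases before the start, 5′ to 3′ on the gene's strand, and capitals mark matches to 1 of the 7 motifs searched on both strands: SMAD box (CAGAC), CRE (TGACGTCA), AP-1 site (TGANTCA), CARE core (TGATGNAA, bound by ATF4), TATA box (TATAAA), the box named for its letters CCAAT and, known to bind Sp1, the GC box (GGGCGG). No 2 of these overlapped in the stretches shown.
Inhba, chr13:16011601-16011850, plus strand: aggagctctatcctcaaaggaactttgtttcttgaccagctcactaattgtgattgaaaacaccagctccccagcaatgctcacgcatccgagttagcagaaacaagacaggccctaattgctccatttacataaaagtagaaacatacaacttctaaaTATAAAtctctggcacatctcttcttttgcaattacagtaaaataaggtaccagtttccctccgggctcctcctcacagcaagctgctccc
Inhbb, chr1:119422249-119422498, minus strand: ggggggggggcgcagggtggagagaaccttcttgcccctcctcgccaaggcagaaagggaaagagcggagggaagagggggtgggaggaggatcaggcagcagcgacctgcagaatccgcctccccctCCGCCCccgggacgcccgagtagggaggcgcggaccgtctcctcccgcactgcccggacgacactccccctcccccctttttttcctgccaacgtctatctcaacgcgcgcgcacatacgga
Inhbc, chr10:127370549-127370798, minus strand: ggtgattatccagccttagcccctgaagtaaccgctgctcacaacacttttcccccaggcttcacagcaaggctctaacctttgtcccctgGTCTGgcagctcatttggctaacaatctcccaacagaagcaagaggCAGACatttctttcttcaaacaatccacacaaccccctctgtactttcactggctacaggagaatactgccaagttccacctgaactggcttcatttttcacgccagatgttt
Tgfb2, chr1:186705990-186706239, minus strand: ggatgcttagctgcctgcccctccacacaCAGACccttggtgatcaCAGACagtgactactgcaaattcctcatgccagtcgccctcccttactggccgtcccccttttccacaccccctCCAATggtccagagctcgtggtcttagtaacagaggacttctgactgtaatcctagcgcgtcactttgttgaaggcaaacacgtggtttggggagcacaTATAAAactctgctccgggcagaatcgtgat

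The 4 stretches differed in composition, from a GC content of 43.2% in Inhba to 68.0% in Inhbb. A SMAD box was found at 2 places in Inhbc and at 2 in Tgfb2, and 42.2% of the 32851 promoter entries held at least 1. The TATA box of Tgfb2 began 31 bases before the start, and 12.4% of entries held that motif. In Inhbe, whose RefSeq start lies 2563 bases inside the longer GENCODE transcript, a CARE core began 181 bases before the RefSeq start, a motif held by 3.45% of entries.
Inhbe, chr10:127352014-127352037, minus strand: cctctttcTTGCATCAtgcatgtc
The Inhbe window also held 2 SMAD boxes and 1 CCAAT box, and no CRE or AP-1 site was matched in a window of any of the 8 genes. CRE was held by 1.55% of entries, the AP-1 site by 6.75%, the CCAAT box by 33.8% and the GC box by 32.7%. A match is a description of letters and not of a bound site.

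Levels are given as CPM, counts scaled to a common library size. Libraries held 9096109 to 12215764 counts under HFD and 15494718 to 20200578 under WD. Nus1 was lower in each N-LKO library (29.3 to 37.9 CPM under HFD, 41.6 to 51.1 CPM under WD) and in each tumor (28.9 to 43.9 CPM) than in each WT library of the same diet (82.3 to 96.0 CPM and 88.1 to 98.8 CPM). The hepatocyte marker Alb was abundant in each of the 5 groups, with means from 26490 CPM in WD N-LKO to 50930 CPM in HFD WT livers. WT WD replicate 2 stood apart from the other WD libraries, with the lowest TMM factor (0.806) and the fewest genes detected (21693). Without tumor replicate 1, 2193 genes in place of 89 were called between tumors and N-LKO livers. Calls among the 10 genes and the pathway lists that rest on either library are given with and without it.

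A gene was called when its edgeR p-value, adjusted over all genes tested, was under 0.05. Of the 10 genes, 7 were called between tumors and WT liver, and none between N-LKO and WT liver under either diet. Under WD the latter contrast called 0 of 17829 genes, and not even the deleted Nus1 passed (log2 −1.02, adjusted p 0.151). A gene not called there cannot be taken as unchanged. Against WT liver, 5 of 10 genes rose in tumors (Inhba, Inhbb, Tgfb2, Tgfbr1 and Tgfbr2) where 8.08% of all 17829 genes tested did, and 2 of 10 fell (Inhbc and Inhbe) where 6.80% did, or 7 of 10 against 14.9% in both directions. The median log2 fold change of the 10 was 0.71, beside 0.04 over all genes. Without WT WD replicate 2, the number called fell to 1 (Inhbc) while that of all genes fell from 2653 to 569, and the 7 genes kept their direction in each alternative run. The 3 tumors and 3 WT livers did not overlap for 7 of the 10 genes and for 34.1% of all genes.

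The other contrasts called no gene among the 10. For N-LKO versus WT liver under HFD, 8 of the 10 passed the filter on low counts (Tgfb2 and Tgfb3 did not), and 0 of 8 were called by edgeR where 4.84% of all genes were, with 4 of 8 at an unadjusted p under 0.05 beside 22.7% of all genes. DESeq2 called 1 (Inhba) and limma-voom 0. Under WD, 0 of 10 were called and 0% of all genes, with 3 of 10 at an unadjusted p under 0.05 beside 12.4% of all genes and 0 called by DESeq2 or limma-voom. Between tumors and N-LKO livers 0 of 10 were called beside 0.499% of all genes, with 5 of 10 at an unadjusted p under 0.05 beside 18.3% of all genes, 3 called by DESeq2 (Inhbb, Inhbe and Tgfb2) and 0 by limma-voom. The same 3 genes passed in edgeR without tumor replicate 1. The groups did not overlap for 3 of 8 tested genes under HFD (14.8% of all genes), for 3 of 10 between N-LKO and WT liver under WD (27.9%) and for 5 of 10 between tumors and N-LKO livers (23.1%).

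**Figure D1:**
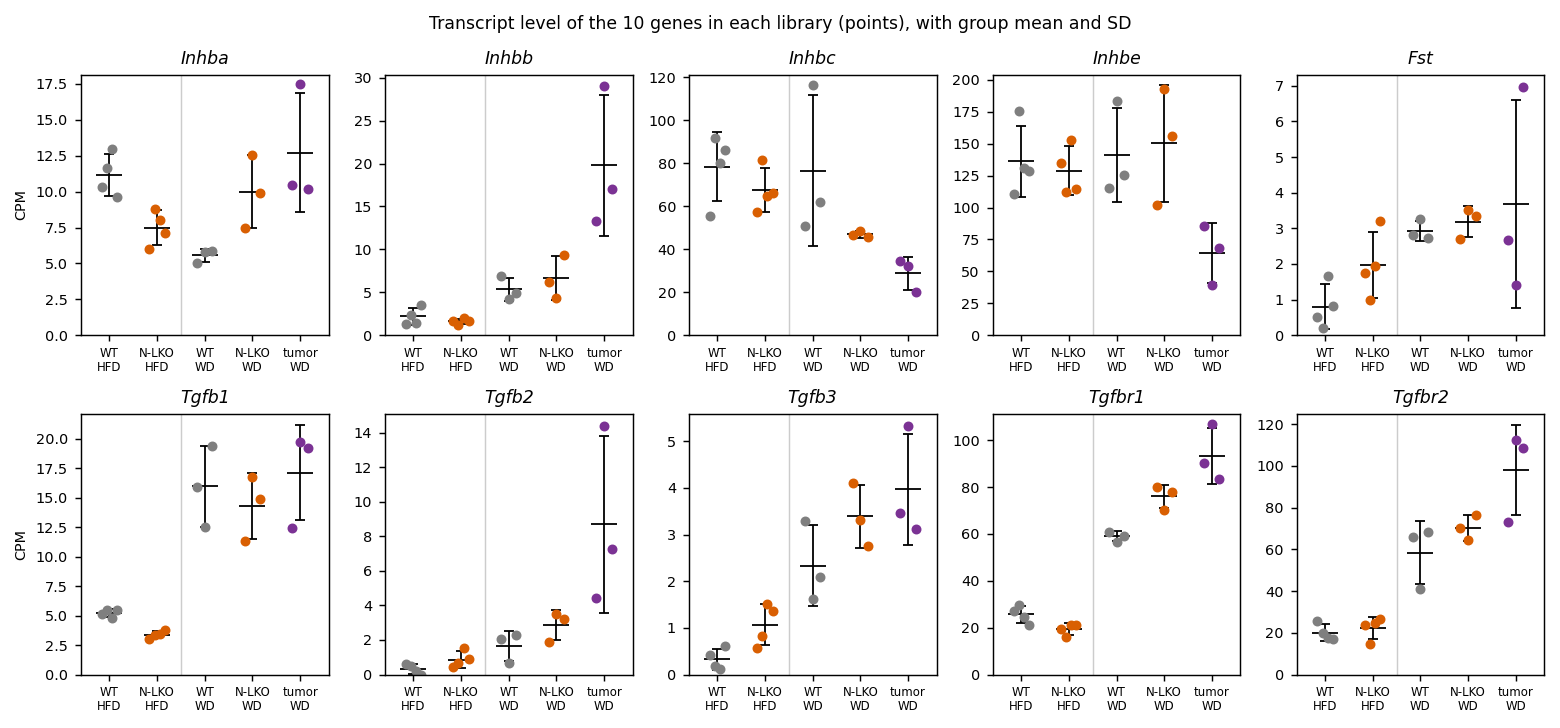
Transcript level (CPM, linear axes from 0) of each of the 10 genes, with 1 point per library and the group mean with its SD, for HFD (left of the grey line) and WD (right) groups. In tumors Inhbb (13.3 to 28.98 CPM) and Tgfb2 (4.42 to 14.4 CPM) lay above every other WD library, and Inhbc (20.1 to 34.3 CPM) and Inhbe (39.05 to 85.5 CPM) below every one; the 2 diets come from separate tables and are not compared.

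Inhba encodes the beta A subunit of activin A and lies on chromosome 13 from 16011851 to 16031621 on the plus strand (GRCm38). Under HFD it stood at 10.3, 11.6, 13.0 and 9.66 CPM in WT livers and at 6.04, 8.80, 8.03 and 7.105 CPM in N-LKO livers. Under WD it stood at 5.01, 5.83 and 5.84 CPM in WT livers, 7.48, 12.6 and 9.93 CPM in N-LKO livers and 10.4, 17.5 and 10.2 CPM in tumors. N-LKO livers were thus all below WT livers under HFD and all above them under WD, and tumors overlapped N-LKO livers. The log2 fold change in N-LKO livers was −0.57 (SE 0.15, adjusted p 0.0535) under HFD and 0.85 (SE 0.26, adjusted p 0.353) under WD, and neither passed. Tumors exceeded WT livers 2.29-fold (log2 1.20, SE 0.26, adjusted p 0.0188); without WT WD replicate 2 the value was 1.23 (adjusted p 0.0645), and it was 1.12 (adjusted p 0.0617) without WT WD replicate 1. Gene models on the opposite strand (B230303A05Rik and Gm48444) overlap Inhba, and without a stated strand their reads cannot be told apart from its own.

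Inhbb, the beta B subunit of activin B, was the ligand subunit with the largest rise in tumors among the 4. It lies on chromosome 1 from 119415465 to 119422248, on the minus strand. WD libraries held 6.86, 4.202 and 4.945 CPM in WT livers, 6.26, 4.31 and 9.40 CPM in N-LKO livers and 13.3, 28.98 and 17.1 CPM in tumors. Each tumor was above each liver, while the liver groups overlapped. Tumors exceeded WT livers by 1.89 log2 units (SE 0.36, 3.72-fold, adjusted p 0.0129; 1.75 and 0.0583 without WT WD replicate 2). They exceeded N-LKO livers by 1.58 (SE 0.35), which did not pass (adjusted p 0.0775) except without tumor replicate 1 (1.79, adjusted p 0.0119). Under HFD the levels were low in both groups, 1.35 to 3.56 CPM in WT and 1.15 to 1.95 CPM in N-LKO livers, from 13 to 35 counts a library, and the ranges overlapped.

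Inhbc and Inhbe, the beta C and beta E subunits, are neighbours on chromosome 10 (127356322 to 127370431 and 127348857 to 127354411, both on the minus strand), and both fell in tumors. Inhbc stood at 50.9, 116.5 and 62.0 CPM in WD WT livers, 46.6, 48.7 and 45.5 CPM in N-LKO livers and 34.3, 32.1 and 20.1 CPM in tumors. The 3 groups did not overlap, and replicate 2 was far above the other WT livers. Tumors were 2.65-fold below WT livers (log2 −1.40, SE 0.30, adjusted p 0.0174). Of the 7 called genes only Inhbc passed whichever of the 9 WD libraries was omitted, at −0.97 (adjusted p 0.0487) without WT WD replicate 2. The differences of N-LKO from WT liver (−0.70, SE 0.29, adjusted p 0.386) and of tumors from N-LKO liver (−0.70, SE 0.29, adjusted p 0.243) did not pass.

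For Inhbe, WD values were 115.0, 183.1 and 125.5 CPM in WT livers, 101.98, 193.1 and 156.1 CPM in N-LKO livers and 85.5, 39.05 and 68.3 CPM in tumors, so that the livers overlapped fully and each tumor lay below them. The log2 fold change was −1.13 (SE 0.32, adjusted p 0.0399) against WT livers and −1.23 (SE 0.32, adjusted p 0.101) against N-LKO livers. The first passed in 3 of 9 fits without 1 library (N-LKO replicates 1 and 2 and tumor replicate 1), and was −0.91 (adjusted p 0.141) without WT WD replicate 2; the second passed without tumor replicate 1 (−1.49, adjusted p 0.0241). Under HFD neither subunit passed: Inhbc ranged from 55.3 to 91.9 CPM in WT and 57.4 to 81.75 CPM in N-LKO livers, and Inhbe from 110.3 to 175.7 CPM and 112.4 to 153.1 CPM.

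Hepatocyte markers were measured beside the 2 subunits. Of 6 markers, 2 fell in tumors against WT liver (Ttr, log2 −0.79, adjusted p 0.0246; the liver transcription factor Hnf4a, −0.75, adjusted p 0.0266), 4 were not called, and none was at or under 3 counts in each library of a group. All 6 had a log2 fold change below 0 (median −0.77, beside 0.04 over all genes), 4 had an unadjusted p under 0.05, and for 3 the groups did not overlap. Of all genes, 6.80% were called lower, 32.55% had such a p and 34.1% did not overlap. The marker values include WT WD replicate 2 and are not given without it. Genes called in this contrast fell from 2653 to 569 when that library was omitted. Cyp2e1, a cytochrome P450 of hepatocytes, stood at 129 to 3249 CPM in tumors and 7447 to 10960 CPM in WT livers (log2 −2.84, adjusted p 0.0752), whereas Alb stood at 35610 ± 11580 and 36330 ± 4973 CPM (SD, n = 3 each; −0.03). The summed level, most of it Alb, was 33290 to 58430 CPM in tumors and 49980 to 60860 CPM in WT livers. Their part in the lower Inhbc and Inhbe levels was not tested. In bulk tissue, fewer cells of a type and less RNA per cell cannot be told apart, here and for each gene that follows.

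Fst encodes follistatin, which binds activins and keeps them from their receptors. It was not called in any contrast. WD values were 2.81, 3.25 and 2.74 CPM in WT livers, 2.69, 3.51 and 3.35 CPM in N-LKO livers and 2.66, 1.42 and 6.97 CPM in tumors. Tumors spanned both liver groups, and the log2 fold change against WT was 0.32 (SE 0.47, adjusted p 0.671). Under HFD it rested on 2 to 15 counts per WT library and 12 to 40 counts per N-LKO library, at 0.80 ± 0.63 CPM and 1.97 ± 0.92 CPM (SD, n = 4 each). Those ranges overlapped and the log2 fold change of 1.33 (SE 0.52) did not pass (adjusted p 0.151).

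Among the TGF-beta ligands, Tgfb2 rose in tumors while Tgfb1 and Tgfb3 were not called. Tgfb2 lies on chromosome 1 from 186622792 to 186705989, on the minus strand. It stood at 2.06, 0.678 and 2.26 CPM in WD WT livers, 1.91, 3.51 and 3.24 CPM in N-LKO livers and 4.42, 14.4 and 7.29 CPM in tumors. Each tumor exceeded each liver, and WT replicate 2, at 10 counts, was the lowest library. The log2 fold change against WT was 2.38 (SE 0.51, 5.19-fold, adjusted p 0.0184), the largest of the 10 genes, and 2.01 (adjusted p 0.0640) without that replicate. Against N-LKO liver it was 1.59 (SE 0.48, adjusted p 0.134), and 1.91 (adjusted p 0.0251) without tumor replicate 1. Under HFD the gene held 0 to 14 counts a library and was not tested.

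Tgfb1, the most abundant of the 3 TGF-beta ligands per transcript length in each group, differed under HFD only by an unadjusted p. WT livers held 5.095, 5.44, 4.77 and 5.49 CPM and N-LKO livers 2.98, 3.37, 3.47 and 3.75 CPM. The HFD groups did not overlap, but the log2 fold change of −0.62 (SE 0.16) had an adjusted p of 0.0529. Under WD its ranges overlapped between all groups (12.54 to 19.4 CPM in WT livers, 11.3 to 16.8 CPM in N-LKO livers and 12.45 to 19.75 CPM in tumors), with log2 fold changes from −0.16 to 0.26. Tgfb3 ranged from 1.63 to 3.29 CPM in WD WT livers, 2.76 to 4.11 CPM in N-LKO livers and 3.12 to 5.325 CPM in tumors. It was not called against WT (0.77, SE 0.32, adjusted p 0.128), and it overlaps Ttll5 on the opposite strand, whose reads could not be told apart from its own. Under HFD it held 1 to 17 counts a library and was not tested.

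The receptor pair rose in tumors by less than Inhbb and Tgfb2. Tgfbr1, the type I TGF-beta receptor, stood at 61.0, 56.7 and 59.3 CPM in WD WT livers, 80.1, 70.4 and 77.7 CPM in N-LKO livers and 90.1, 106.8 and 83.5 CPM in tumors. The 3 groups did not overlap and stood in that order. Tumors exceeded WT livers 1.59-fold (log2 0.67, SE 0.13, adjusted p 0.0138; 0.63 and 0.0583 without WT WD replicate 2, and 0.46 and 0.0528 with length and GC of transcripts as an offset). The steps from WT to N-LKO liver (0.37, SE 0.13, adjusted p 0.360) and from N-LKO liver to tumor (0.30, SE 0.13, adjusted p 0.253) did not pass. Under HFD the order was the opposite, with 27.1, 29.6, 24.5 and 21.4 CPM in WT livers and 19.5, 16.0, 21.2 and 21.1 CPM in N-LKO livers. The groups did not overlap, with nearest libraries at 21.4 and 21.2 CPM, and the log2 fold change of −0.40 (SE 0.125) did not pass (adjusted p 0.0844).

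Tgfbr2, the type II receptor that binds the TGF-betas first, stood at 65.84, 41.004 and 68.16 CPM in WD WT livers, 70.1, 64.3 and 76.6 CPM in N-LKO livers and 73.0, 112.3 and 108.8 CPM in tumors. Tumor replicate 1 lay among the N-LKO livers, and WT replicate 2 lay far below the other livers. The rise against WT (log2 0.75, SE 0.22, adjusted p 0.0470) was near the threshold: it passed in 2 of 9 other settings and in 1 of 9 fits without 1 library (tumor replicate 1), and stood at 0.55 (adjusted p 0.141) without WT WD replicate 2. Under HFD the ranges overlapped (17.1 to 25.7 CPM in WT and 14.7 to 26.7 CPM in N-LKO livers; log2 0.16, SE 0.18, adjusted p 0.649).

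**Figure D2:**
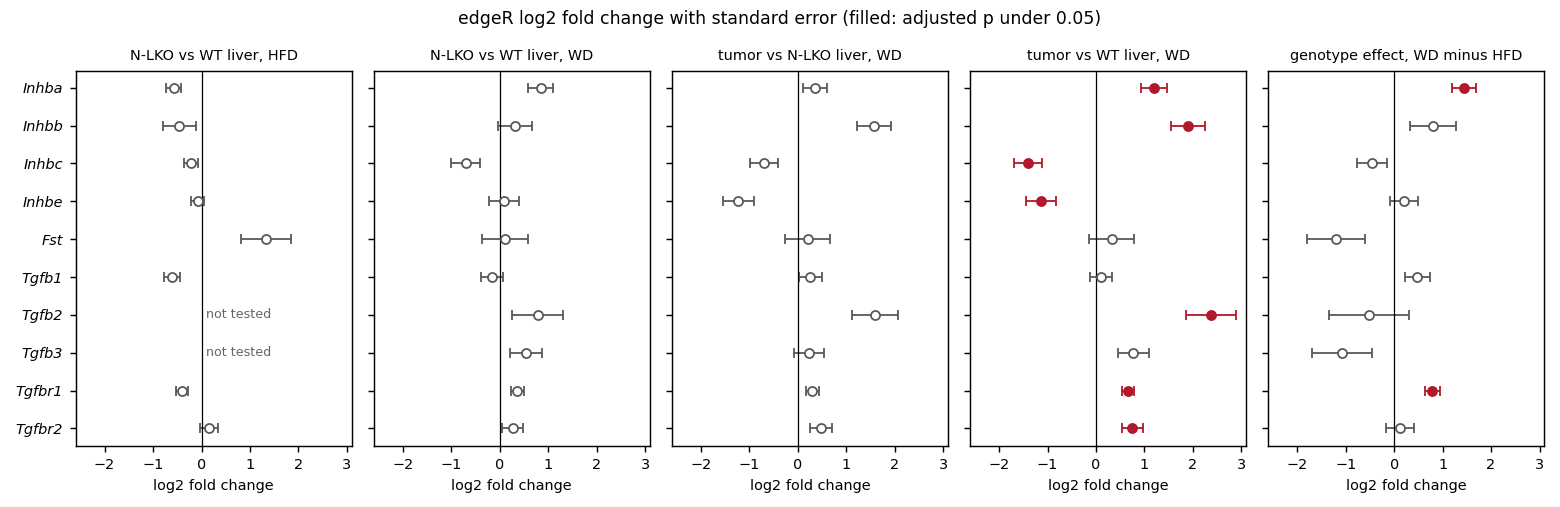
Log2 fold change (x axis) of each of the 10 genes in the 4 contrasts and in the difference of the genotype effect between diets, with bars for the standard error; filled red points passed an adjusted p of 0.05 by edgeR. Filled points appear for 7 genes in tumor versus WT liver, from −1.40 (Inhbc) to 2.38 (Tgfb2), and for Inhba and Tgfbr1 in the difference between diets.

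An interaction term over the 14 livers tested the difference of the N-LKO effect under WD from that under HFD. Of the 10 genes, 2 passed (Inhba and Tgfbr1) beside 1.62% of 15850 genes tested, and in both the value was lower in N-LKO livers under HFD and higher under WD. The difference of log2 fold changes was 1.44 (SE 0.26, adjusted p 0.0212) for Inhba and 0.79 (SE 0.16, adjusted p 0.0287) for Tgfbr1. With length and GC of transcripts as an offset they were 1.10 (adjusted p 0.0917) and 0.46 (adjusted p 0.152), so that neither passed. Without N-LKO WD replicate 3 they were 1.44 (adjusted p 0.0552) and 0.77 (adjusted p 0.0729). Tgfbr1 was also not called without N-LKO HFD replicate 1, WT HFD replicate 1 or 2, N-LKO WD replicate 1, or WT WD replicate 1 or 2 (adjusted p 0.0529 to 0.0640). Because the diets came from separate tables, diet and table cannot be told apart.

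Levels between genes were compared per transcript length, as CPM per kilobase of the longest GENCODE transcript, within each group. In WD WT livers the order was Inhbc (41.1 ± 18.9, SD, n = 3), Inhbe (26.6 ± 6.90), Tgfbr1 (10.2 ± 0.38), Tgfbr2 (7.21 ± 1.86), Tgfb1 (6.20 ± 1.34), Inhbb (1.25 ± 0.32), Fst (1.00 ± 0.095), Inhba (0.87 ± 0.075), Tgfb3 (0.69 ± 0.25) and Tgfb2 (0.33 ± 0.17). The ranges overlapped between Inhbc and Inhbe, Tgfbr2 and Tgfb1, Inhbb and Fst, and Inhba and Tgfb3. In N-LKO livers Inhbe (28.3 ± 8.62) stood before Inhbc (25.3 ± 0.86), and Inhbb (1.56 ± 0.60), Inhba (1.56 ± 0.40) and Fst (1.09 ± 0.15) were neighbours whose ranges overlapped.

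In tumors Inhbc and Inhbe overlapped the receptors. Tgfbr1 stood first at 16.2 ± 2.08 CPM per kilobase (SD, n = 3), before Inhbc (15.5 ± 4.10), Tgfbr2 (12.1 ± 2.68), Inhbe (12.1 ± 4.42), Tgfb1 (6.66 ± 1.58) and Inhbb (4.65 ± 1.92). Neighbours in this order overlapped down to Inhbb. Inhbb (lowest 3.13) did not overlap Inhba (highest 2.74). Inhba (1.99 ± 0.65), Tgfb2 (1.70 ± 1.00), Fst (1.26 ± 1.00) and Tgfb3 (1.17 ± 0.35) followed, and neighbours among these overlapped. In HFD livers the order was led by Inhbc (42.2 ± 8.69 in WT and 36.3 ± 5.52 in N-LKO livers, n = 4 each) and Inhbe (25.6 ± 5.23 and 24.2 ± 3.59) and ended with Tgfb3 and Tgfb2 in both groups. The value of Inhbe depends on the transcript length of 5319 bases used for it.

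**Figure D3:**
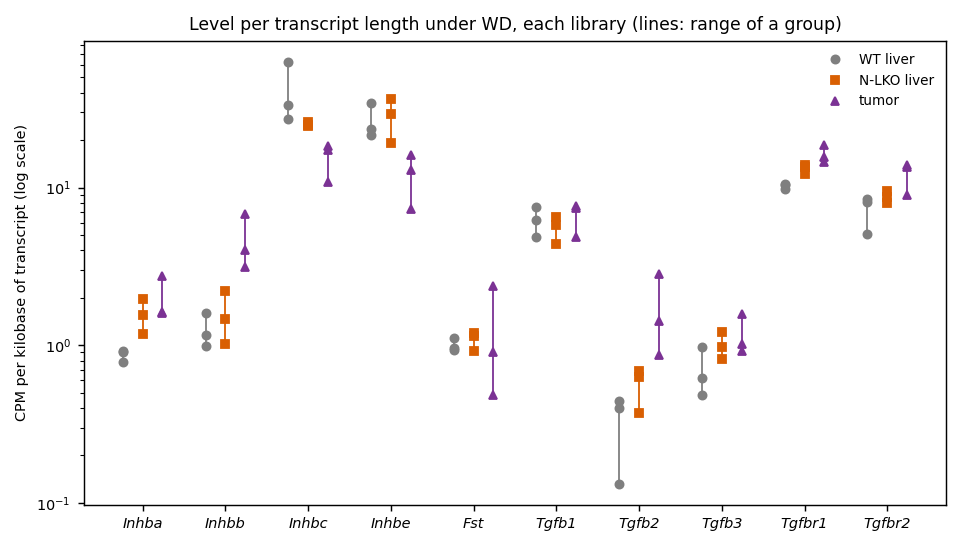
CPM per kilobase of transcript (log axis) of the 10 genes in the WD libraries, with 1 symbol per library and lines for the range of a group. Inhbc and Inhbe lie above both receptors in WT livers (27.4 to 62.7 and 21.6 to 34.4 against at most 10.6) and overlap them in tumors.

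The other genes of the pathway were described by 5 lists, in which 4 of 46 tested genes (8.70%) were called in tumors against WT liver, beside 14.9% of all genes, and 2 of 37 (5.41%) under HFD, beside 4.84%. The lists were of activin receptors and co-receptors (8 genes), other activin-class ligands and antagonists (10), latent TGF-beta binding and activation (11), SMAD2/3 transducers and brakes (11) and target genes (12). Among these 52 genes Tdgf1, Inha, Mstn and Lefty2 were not listed in either table. In tumors against WT liver, 1 of 6 tested receptors fell, Tgfbr3, the co-receptor betaglycan that presents TGF-beta2 and inhibin (19.9 ± 3.76 against 30.6 ± 3.44 CPM, SD, n = 3 each; log2 −0.62, adjusted p 0.0293). The type I and type II activin receptors Acvr1b, Acvr2a and Acvr2b were not called, at −0.09, −0.17 and −0.30. Of 6 tested ligands and antagonists 1 rose, the follistatin-like activin antagonist Fstl3 (log2 3.33, adjusted p 0.0370), from 0 to 8 counts per WT library to 16 to 89 counts per tumor, so that its fold depends on few counts.

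Of 11 genes of latent TGF-beta binding and activation, 1 rose in tumors, Ltbp2, a matrix protein of the latent TGF-beta binding protein family (4.98 ± 2.69 against 1.18 ± 0.34 CPM; log2 2.07, adjusted p 0.0153). It was as high in N-LKO livers (5.20 ± 1.57 CPM), where the log2 fold change of 2.14 against WT had an unadjusted p of 0.000436 and an adjusted p of 0.267. Of 11 SMAD transducers and brakes, 1 fell, Smad7, the inhibitory SMAD that is itself induced by the pathway (11.2 ± 2.17 against 20.5 ± 5.55 CPM; log2 −0.87, adjusted p 0.0306), while Smad2, Smad3 and Smad4 stood at 0.31, 0.26 and 0.11 and were not called. Without WT WD replicate 2, none of Tgfbr3, Fstl3, Ltbp2 and Smad7 passed (adjusted p 0.0836, 0.130, 0.0632 and 0.107). Of the 4, only Ltbp2 was called whenever another library was omitted; Tgfbr3 was not called in 4 other such fits, Fstl3 in 5 and Smad7 in 3. Without tumor replicate 1, 9 of 46 genes were called, the same 4 and Gdf15, Pmepa1, Tgif1, Smad2 and Chrd. With all libraries kept, DESeq2 called 9, the same 4 and Gdf15, Pmepa1, Itgb6, Lox and Ltbp4. In limma-voom 4 were called, Tgfbr3, Ltbp2, Smad7 and Gdf15, and Fstl3 was not (adjusted p 0.0626).

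Target genes of TGF-beta and activin, chiefly of matrix and contraction, were not called in tumors against WT liver (0 of 12 by edgeR). DESeq2 called Lox there (log2 1.31, adjusted p 0.0315), and limma-voom called no target gene. Of the 12, 1 had an unadjusted p under 0.05, where 32.55% of all genes did. Their median log2 fold change was 0.60, beside 0.04 over all genes, and 10 of the 12 values were above 0. That lean includes WT WD replicate 2, and the median was not taken without it. No gene of the 5 lists was called in that contrast when it was omitted. WT livers ranged widely, with Col1a1 from 12.5 to 80.9 CPM (median 58.2) and Col3a1 from 28.3 to 151.2 CPM (median 132). Col1a1 and Col3a1, fibrillar collagens, stood at 0.84 (adjusted p 0.301) and 0.99 (adjusted p 0.195). Under HFD 0 of 9 tested were called by edgeR, 7 had an unadjusted p under 0.05 where 22.7% of all genes did, and the median was 0.81 beside −0.01 over all genes. Col1a1 stood at 1.55 (adjusted p 0.0593) and Fn1, fibronectin, at −0.43 (adjusted p 0.0535), below 0 unlike the median of the list. DESeq2 called Fn1 (adjusted p 0.00707), and limma-voom called Fn1 (0.0429) and Col1a1 (0.04997). Without WT HFD replicate 1 edgeR called Col1a1, Col1a2 and Col3a1, all higher, and without N-LKO HFD replicate 2 it called Col1a1.

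Under HFD, 2 other pathway genes were called, both lower in N-LKO livers. Smurf2, a ubiquitin ligase that targets SMADs and the TGF-beta receptor, stood at 33.5 ± 1.38 against 46.0 ± 3.85 CPM (SD, n = 4 each; log2 −0.46, adjusted p 0.0167; adjusted p 0.0559 without N-LKO HFD replicate 1). Acvr2a, a type II activin receptor, stood at 17.3 ± 1.47 against 23.7 ± 2.498 CPM (−0.46, adjusted p 0.0349); it passed in 1 of 8 fits without 1 library (WT replicate 1), and with the length and GC offset it was −0.32 (adjusted p 0.168). Between N-LKO and WT liver under WD, edgeR called 0 of 46 genes of the lists, with 8 (17.4%) at an unadjusted p under 0.05 beside 12.4% of all genes. DESeq2 called Ltbp2 (adjusted p 0.00116) and Lox (0.0447) there, and limma-voom 0. Between tumor and N-LKO liver edgeR called 0 of 46, with 10 (21.7%) at an unadjusted p under 0.05 beside 18.3% of all genes. DESeq2 called Tgfbr3, Gdf15 and Ltbp1 there, all lower, and limma-voom 0. Without tumor replicate 1, edgeR called 7 of 46 in that contrast: Tgfbr3 (−0.75, adjusted p 0.0109), Gdf15 (−1.72, 0.0123), Ltbp1 (−1.24, 0.0298), Dcn (−1.06, 0.0238), Smad7 (−0.89, 0.0445) and Tgfbi (−0.62, 0.0258) lower, and Smurf1 higher. In the difference between diets edgeR called 0 of 44, with 5 (11.4%) at an unadjusted p under 0.05 beside 20.01% of all genes, DESeq2 called Acvr2a and Itgav, and limma-voom 0.

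**Figure D4:**
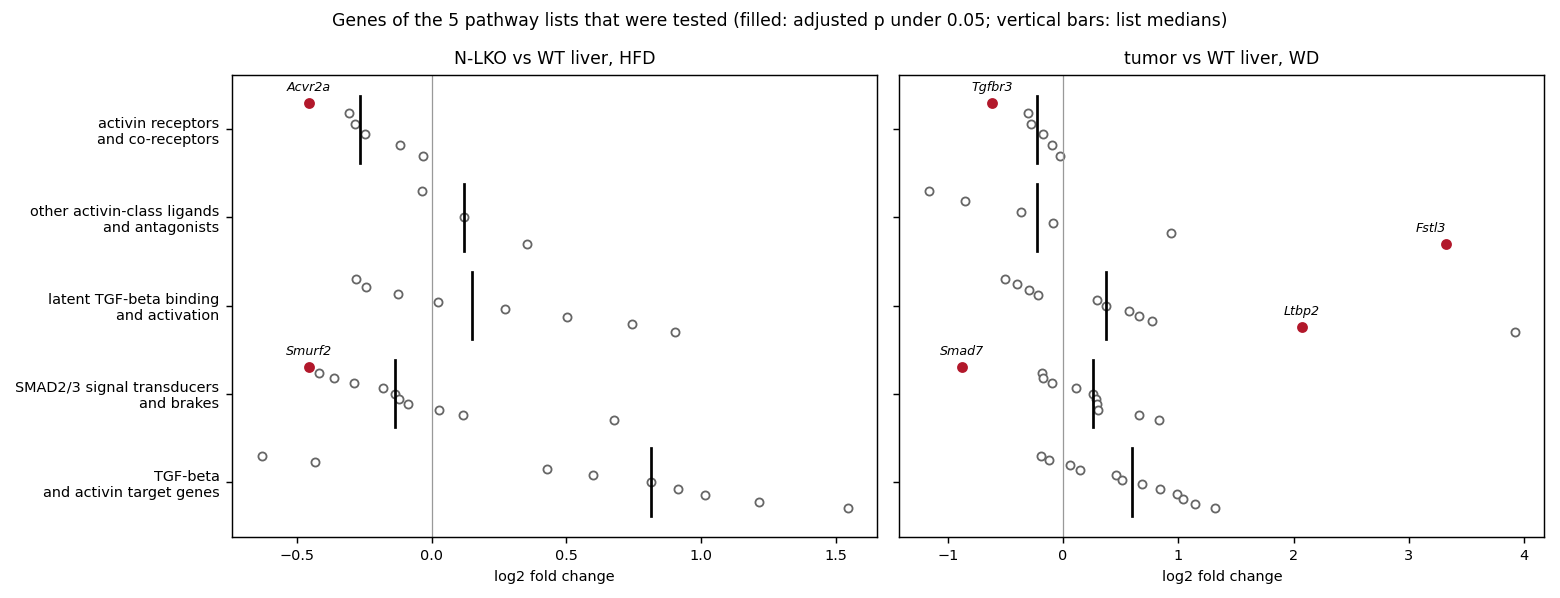
Log2 fold change (x axis) of each tested gene of the 5 pathway lists (rows) in N-LKO versus WT liver under HFD (left) and in tumor versus WT liver under WD (right); filled red points passed an adjusted p of 0.05 and vertical bars are list medians. Called genes are Acvr2a and Smurf2 on the left and Tgfbr3, Fstl3, Ltbp2 and Smad7 on the right, and the target genes lie mostly above 0 in both panels with none called.

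Some markers of other liver cells were called in tumors against WT liver and in N-LKO livers under HFD. In tumors against WT liver, 6.80% of all genes were called lower and 8.08% higher. There 3 of 5 Kupffer cell markers fell (Timd4, Cd5l and Marco), and the 5 summed to 97.0 to 311 CPM in tumors and 388 to 563 CPM in WT livers. Of 6 stellate cell markers 2 fell (Reln and Ecm1), while 3 others had a log2 fold change above 0. The sum of the 6 was 257 to 386 against 406 to 555 CPM. Of 5 cholangiocyte markers 2 rose (Sox9 and Spp1), while 2 others had a log2 fold change below 0. The sum of the 5 was 195 to 523 CPM against 17.2 to 69.5 CPM, most of it Spp1 (132 to 489 against 10.3 to 61.45 CPM). Of 6 endothelial markers Pecam1 rose and Clec4g fell (256 to 264 against 263 to 293 CPM), and none of 5 macrophage (245 to 373 against 225 to 356 CPM), 4 tested lymphocyte (3.64 to 5.62 against 1.90 to 2.98 CPM over 5 listed) or 4 mesothelial markers (4.47 to 8.87 against 4.11 to 10.1 CPM) was called. Under HFD, where Inhba, Tgfb1 and Tgfbr1 were lower without passing, 4.84% of all genes were called in either direction. In N-LKO livers 4 of 5 Kupffer cell markers fell (48.9 to 102.3 against 102.3 to 157.2 CPM). Of 6 endothelial markers 1 fell (Stab2), and of 2 tested cholangiocyte markers 1 rose (Spp1). Between N-LKO and WT liver under WD, where Inhba and Tgfbr1 stood higher without passing, no marker was called. Hepatocyte markers there summed to 35880 to 44120 CPM in N-LKO and 49980 to 60860 CPM in WT livers, with 6 of 6 below 0 (median −0.55). Cholangiocyte markers summed to 114.5 to 150.8 against 17.2 to 69.5 CPM, most of it Spp1, with 5 of 5 above 0. In the difference between diets no marker was called. All 6 hepatocyte markers were below 0 (median −0.41), as were 4 of 6 stellate cell markers (median −0.20). Above 0 were 5 of 5 Kupffer cell markers (median 0.39), 5 of 5 macrophage markers (0.49) and 5 of 6 endothelial markers (0.29). Of 3 tested cholangiocyte markers 2 were above 0, and 2 of 2 tested lymphocyte and 2 of 2 tested mesothelial markers were below 0. Marker values in contrasts that use the WD WT livers include WT WD replicate 2 and are not given without it. The part of these cells in the levels of the 10 genes was not tested.

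For the 7 genes called in at least 1 contrast, the genes with the most similar pattern were found by Pearson correlation of log2 CPM, centred within each table, over the 17 libraries and 13415 other genes tested in both tables (13416 for Tgfb2). The libraries share group and normalization, so these values describe likeness and carry no test. The 3 nearest genes were Arntl, Desi2 and Fnbp1l for Inhba (0.93, 0.89 and 0.89), Zfp952, H3f3a and Tmed7 for Inhbb (0.92, 0.90 and 0.87), Cpn1, Men1 and Slc30a5 for Inhbc (0.96, 0.95 and 0.94) and Tent4b, Paip1 and Tbx3 for Inhbe (0.93, 0.93 and 0.92). They were Col4a1, Pea15a and Tagln2 for Tgfb2 (0.97, 0.94 and 0.94), Ednrb, Itgav and Tmx3 for Tgfbr1 (0.93, 0.92 and 0.90) and Trim5, Slc44a3 and Pea15a for Tgfbr2 (each 0.91). Arntl is a core gene of the circadian clock, Cpn1 a carboxypeptidase subunit secreted by the liver, Col4a1 a basement membrane collagen, and Itgav the alpha V integrin subunit that takes part in release of latent TGF-beta.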

How the data were processed

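RNA-seq of 17 mouse liver and tumor samples was analysed in R 4.3.3 from 2 deposited tables of estimated counts per gene (HFD, 19151 genes; WD, 24233 genes). The authors made these expected counts in Partek by expectation-maximization; the study's methods name single-end HiSeq reads, ribosomal RNA removal and TopHat2, whereas the submitters' processing notes list STAR, Partek and mm9. Gene positions in the files are those of GRCm38 (GENCODE M21) for 96.8% and 96.4% of genes, which was used here. Strand use was not given in the sources used here. All per-sample columns were assigned (0 were not).

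Counts were rounded and tested with edgeR 4.0.16 (quasi-likelihood F test, TMM, filterByExpr, Benjamini-Hochberg adjusted p under 0.05). Separate fits were made for the 8 HFD livers, for the 9 WD samples and, as an interaction, for the 14 livers. CPM used TMM-scaled totals; the standard error is the log2 fold change divided by the root of F. The biological coefficient of variation was 0.149 (HFD), 0.243 (WD) and 0.163 (interaction). Alternatives were DESeq2 1.42.0 (size factors, Wald test), limma 3.58.1 (voom), upper-quartile scaling, no filter, length and GC offsets, a replicate block, the 2 groups alone and leaving out each library. Tumor versus WT and tumor versus N-LKO share the tumors. Fits were tested on simulated data. The genes, lists and rule for naming genes (the 10 genes, Nus1, Dhdds, pathway list genes and 3 nearest genes) were chosen with earlier results of these data known; marker genes are named as well where called.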

Additional observations from a re-analysis of the deposited data

Results flagged for a closer look

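The genotype effect differed between diets for 2 of the 10 genes by the edgeR interaction test. For Inhba the log2 fold change of N-LKO against WT liver was 1.44 higher under WD than under HFD (adjusted p 0.0212), with all 4 N-LKO livers below the WT livers under HFD and all 3 above them under WD. For Tgfbr1 the difference was 0.79 (adjusted p 0.0287), with the same arrangement of the libraries. The adjusted p over the 8 other settings ran from 0.000115 to 0.131 for Inhba and from 0.000688 to 0.260 for Tgfbr1, and over the 14 fits without 1 library from 0.0265 to 0.0552 and from 0.0310 to 0.0729; of those 14, 13 and 7 passed. No library of the HFD groups stood apart from its group by Dixon's criterion for any of the 10 genes, and the WD groups of 3 were not tested for this.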

How the results depend on the processing

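For the 10 genes, 380 of 414 values under other settings and 429 of 474 with 1 library left out kept their direction and side of the threshold. The counts that moved follow, and the cause was not tested.

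Under HFD, genes called numbered 1000 by DESeq2, 278 with the length and GC offset, 184 with the replicate block and offset, and 179 to 597 with 1 library left out; of the 10 genes, 1 was called by DESeq2 and 0 to 1 with 1 library left out. Between N-LKO and WT liver under WD they numbered 100 by DESeq2, 6 with the 2 groups alone and 0 to 1 with 1 library left out. Between tumor and N-LKO liver they numbered 1021 by DESeq2, 18 by limma-voom, 36 with the block, 51 with block and offset, 29 with the 2 groups alone and 3 to 2193 with 1 library left out (10 genes: 3 by DESeq2, 0 to 3). Between tumor and WT liver they numbered 705 with the 2 groups alone and 569 to 3819 with 1 library left out; of the 10 genes, 4 were called with block and offset, 2 with the 2 groups alone and 1 to 7 with 1 library left out. For the difference between diets they numbered 981 by DESeq2, 1 with the offset, 0 with the block, 0 with block and offset and 22 to 330 with 1 library left out; of the 10 genes, 0 were called with the offset, 0 with the block, 0 with both and 0 to 2 with 1 library left out.

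Log2 fold changes that changed sign all belonged to results not called. With the offset, then with block and offset, they were 0.0043 and 0.0096 (HFD, Inhbe), −0.0551 and −0.0728 (N-LKO versus WT, WD, Fst) and −0.0582 and −0.0177 (difference between diets, Tgfbr2). For Fst, limma-voom gave −0.12 in tumor versus N-LKO and −0.0127 in tumor versus WT liver, and block with offset −0.0043 in the latter. With 1 library left out the ranges were −0.17 to 0.0624 (HFD, Inhbe). They were −0.0142 to 0.55 (Inhbb), −0.13 to 0.32 (Inhbe) and −0.31 to 0.0069 (Tgfb1) for N-LKO versus WT under WD, −0.64 to 0.59 (Fst) and −0.0533 to 0.39 (Tgfb3) for tumor versus N-LKO, −0.53 to 0.68 (Fst) and −0.0457 to 0.29 (Tgfb1) for tumor versus WT, and −0.0213 to 0.42 (Inhbe) and −0.0909 to 0.26 (Tgfbr2) for the difference between diets.

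Correlations of deviations between samples with the same replicate number ran from −0.124 to 0.107. The groups are too small for these values to decide whether the numbers pair samples. Most replicate numbers also differ from those in the submitters' library names. Shared animals or batches were not tested. In the paired fit (block) the difference between diets was 1.42 (adjusted p 0.0625) for Inhba and 0.79 (adjusted p 0.0826) for Tgfbr1. Upper-quartile scaling moved the median of all genes in tumor versus WT liver to 0.11. Under HFD, Tgfb2 and Tgfb3 had too few counts to test.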
